A study of Mus musculus with 24 samples.

Results

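The cathepsins are lysosomal proteases, and the 10 cathepsin genes described here (Ctsa, Ctsb, Ctsc, Ctsd, Ctsf, Ctsh, Ctsk, Ctsl, Ctss and Ctsz) were taken by symbol from a 3′-end gene expression table of mouse frontal cortex that lists 33000 genes. All 10 were among the 14621 genes with enough counts to be tested. The table came from mice at 3 months of age, 3 wild-type (WT) C57BL/6 mice and 3 mice homozygous for the GFAP-IL6 transgene. This transgene places interleukin-6 under the promoter of the astrocyte gene Gfap. Total RNA from each mouse was carried into 4 libraries by 3'Pool-seq, a method that reads the polyadenylated ends of transcripts. The 4 libraries had 2 ng or 1 ng of cDNA in the tagmentation reaction, in a set A and a set B, so they are repeats of a mouse and not further replicates. The comparison asks which cathepsin transcripts differ in cortex that is chronically exposed to interleukin-6.

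Most cathepsins are cysteine proteases with a papain-like fold, and they are made as inactive proenzymes that mature in the acidic lumen of endosomes and lysosomes. Ctsd is an aspartic protease and Ctsa a serine carboxypeptidase. In brain, neurons and glia all hold lysosomal cathepsins, while Ctss is known as a protease of microglia and other myeloid cells. Cystatins inhibit the cysteine cathepsins, and mannose 6-phosphate receptors carry many of the proenzymes to the lysosome.

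Library totals ran from 1524165 to 12256374 counts, and the totals summed per mouse from 7852743 to 37582644. Levels are given in CPM, counts on a per-megaread scale after TMM scaling between mice, and fold changes as log2 of GFAP-IL6 over WT with the standard error (SE) from edgeR's quasi-likelihood test. Genes passing 0.05 after Benjamini-Hochberg adjustment are referred to as called, and as differentially expressed genes (DEGs) where the log2 fold change also exceeded 1 in size. Il6 was at 0.260, 0.166 and 0 CPM in the 3 WT mice and at 3.16, 1.58 and 4.23 CPM in the 3 GFAP-IL6 mice, and Gfap rose from 20.0 to 110 CPM on average. All 6 listed frontal cortex markers were present, and their sum was 739 to 805 CPM in WT and 753 to 791 CPM in GFAP-IL6 mice. The median log2 fold change over all genes tested was -0.01.

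With the 4 libraries of each mouse summed, 5 of the 10 cathepsins were called higher in GFAP-IL6 mice, Ctss, Ctsc, Ctsz, Ctsh and Ctsd. Over all genes tested 1.74% were called higher. edgeR called 0 of the 10 lower, against 0.0547% of all genes, and DESeq2 called 0 lower as well; at an unadjusted p under 0.05 the count was also 0. Ctss, Ctsc and Ctsh also passed the DEG threshold, against 1.20% of all genes in this direction. For 8 of the 10 the lowest GFAP-IL6 value exceeded the highest WT value, against 8.43% of all genes, and for none did all GFAP-IL6 mice lie below WT, against 5.93%. The median log2 fold change was 0.50 over the 10 members. Tissue RNA was measured, so more cells of a type and more RNA per cell cannot be told apart.

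**Figure D1:**
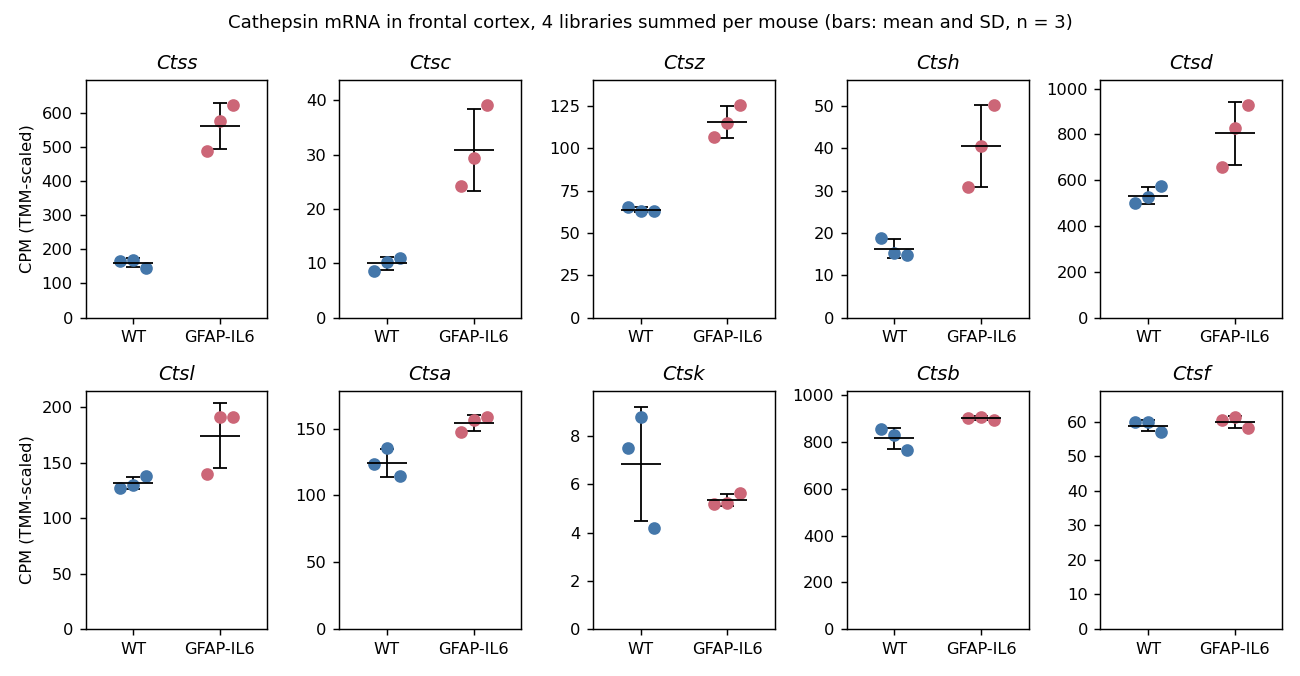
CPM of each cathepsin (vertical axes, linear from 0) in the 3 WT and the 3 GFAP-IL6 mice, with points for mice and bars for the mean and SD. The genotypes are apart in the 5 panels of the top row, and in Ctsf and Ctsk the points of both genotypes overlap.

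Ctss, an endopeptidase that stays active at neutral pH and trims the invariant chain of MHC class II, changed most among the members (ENSMUSG00000038642.8, chr3:95526786-95556403 on the plus strand, GRCm38). Its level was 166, 170 and 146 CPM in the WT mice and 489, 576 and 623 CPM in the GFAP-IL6 mice. The lowest GFAP-IL6 mouse was thus far above the highest WT mouse, and the gap was larger than the spread within either genotype. The mean went from 161 ± 12.8 to 563 ± 68.0 CPM (SD, n = 3), a log2 fold change of 1.81 (SE 0.10, edgeR adjusted p = 8.73e-08) or 3.50-fold. No library held fewer than 213 counts of Ctss.

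Ctsc encodes dipeptidyl peptidase 1, the enzyme that activates the granule serine proteases of leukocytes (ENSMUSG00000030560.14, chr7:88278085-88310888, plus strand). The WT mice had 8.59, 10.3 and 11.0 CPM and the GFAP-IL6 mice 24.3, 29.4 and 39.1 CPM. These levels were low, with 13 to 429 counts in a library, yet the genotypes did not overlap. This was a 3.19-fold difference (log2 fold change 1.67, SE 0.17, edgeR adjusted p = 3.35e-05).

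Ctsh, an aminopeptidase of the papain-like group, was the remaining DEG (ENSMUSG00000032359.12, chr9:90054152-90076089, plus strand). It stood at 18.8, 15.3 and 14.7 CPM in the WT mice and at 30.9, 40.5 and 50.1 CPM in the GFAP-IL6 mice. The GFAP-IL6 mice were all higher but were spread more widely than the WT mice, with an SD of 9.62 against 2.24 CPM (n = 3 each). The log2 fold change was 1.32 (SE 0.16, edgeR adjusted p = 0.000183), or 2.50-fold.

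Ctsz, a carboxypeptidase that removes single residues from peptide ends, rose by less than these and with little spread (ENSMUSG00000016256.10, chr2:174427493-174439039, minus strand). Its level was 65.5, 62.8 and 63.0 CPM in WT and 107, 115 and 125 CPM in GFAP-IL6 mice. The 3 WT mice lay within a few CPM of each other. Ctsz was 1.82-fold higher (log2 fold change 0.86, SE 0.09, edgeR adjusted p = 3.69e-05).

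Ctsd, the major aspartic protease of lysosomes, was among the most abundant members in both genotypes (ENSMUSG00000007891.13, chr7:142375911-142388038, minus strand). The WT mice had 500, 525 and 573 CPM and the GFAP-IL6 mice 658, 827 and 928 CPM. The genotypes did not overlap, with GFAP-IL6 mouse 1 closest to WT. The difference was 1.51-fold (log2 fold change 0.60, SE 0.11, edgeR adjusted p = 0.00897). The call was lost without WT mouse 2 (log2 fold change 0.58, adjusted p = 0.0608) and without GFAP-IL6 mouse 3 (0.48, adjusted p = 0.0640).

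In each of these 5 genes GFAP-IL6 mouse 1 was the lowest and mouse 3 the highest of its genotype. Those mice also had the smallest and the largest summed totals of the genotype, 9534116 and 37582644 counts, against 7852743 to 19098634 in WT. When all mice were thinned to the smallest total, the number of members called higher was again 5. The share of counts from mitochondrial genes was 8.64 to 9.37% in libraries summed per GFAP-IL6 mouse and 8.76 to 11.4% in WT, and its part in the result was not tested.

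Ctsl, Ctsa and Ctsb, broadly expressed lysosomal enzymes, were higher in all 3 GFAP-IL6 mice than in any WT mouse but were not called. Ctsl, an endopeptidase (ENSMUSG00000021477.8, chr13:64359337-64370890, minus strand), was at 127, 130 and 138 CPM in WT and at 140, 191 and 192 CPM in GFAP-IL6 mice (log2 fold change 0.41, SE 0.11, edgeR adjusted p = 0.0865). GFAP-IL6 mouse 1 lay just above the highest WT mouse, and without it Ctsl was called (log2 fold change 0.54, adjusted p = 0.00304). Ctsl also passed with DESeq2 (adjusted p = 0.0323) and with no filter on low counts (edgeR adjusted p = 0.000850).

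Ctsa (ENSMUSG00000017760.13, chr2:164832873-164841032, plus strand) also protects the sialidase Neu1 and the beta-galactosidase Glb1 in a complex. It had 123, 135 and 114 CPM in WT and 148, 156 and 159 CPM in GFAP-IL6 mice (log2 fold change 0.31, SE 0.09, edgeR adjusted p = 0.113). It was called with no filter on low counts (adjusted p = 0.0465). Ctsb (ENSMUSG00000021939.7, chr14:63122462-63145923, plus strand), the member with the highest mean CPM, had 854, 829 and 764 CPM in WT and 904, 909 and 894 CPM in GFAP-IL6 mice. All 3 GFAP-IL6 mice lay within a narrow range just above the WT range. Its log2 fold change was 0.15 (SE 0.08, edgeR adjusted p = 0.695).

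Ctsf and Ctsk were the members whose genotypes overlapped. Ctsf, a cysteine cathepsin with a long propeptide (ENSMUSG00000083282.2, chr19:4855130-4860918, plus strand), was at 59.9, 60.0 and 57.0 CPM in WT and at 60.4, 61.5 and 58.1 CPM in GFAP-IL6 mice, with a log2 fold change of 0.02 (SE 0.09, edgeR adjusted p = 0.975). Ctsk (ENSMUSG00000028111.4), known as the collagen-degrading protease of osteoclasts, had 7.49, 8.81 and 4.20 CPM in WT and 5.17, 5.23 and 5.63 CPM in GFAP-IL6 mice. The WT mice were spread around the GFAP-IL6 mice, and the log2 fold change was -0.40 (SE 0.22, edgeR adjusted p = 0.686). Ctsk had 4 to 75 counts in a library and 32 to 217 summed per mouse. Ctsk lies on the same strand of chromosome 3 as Ctss, at chr3:95499256-95509362, and 17423 bases separate its end from the start of Ctss.

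By mean CPM alone Ctsb was highest in both genotypes, at 816 CPM in WT and 902 CPM in GFAP-IL6 mice. Ctsd followed at 533 and 804 CPM and Ctss at 161 and 563 CPM. In GFAP-IL6 mouse 3 Ctsd, at 928 CPM, was above Ctsb, at 894 CPM. The order was also taken per kilobase of annotated exon length, although in a 3′-end method counts need not scale with length, and it was then a different one. Per kb, Ctsd was highest in WT mice at 250 ± 17.4 CPM per kb (SD, n = 3), then Ctsb at 172 ± 9.79 and Ctss at 118 ± 9.45. Ctsl, Ctsz, Ctsa, Ctsf and Ctsh followed from 66.8 down to 10.1 CPM per kb. Ctsk at 4.52 ± 1.57 and Ctsc at 4.0 ± 0.50 CPM per kb came last and did not differ beyond their spread. In GFAP-IL6 mice Ctss, behind Ctsb and Ctsd by CPM, had 414 ± 50.1 CPM per kb and Ctsd 378 ± 63.9. Their ranges over mice overlapped, but within each of the 3 mice Ctss was above Ctsd. Ctss had 360, 424 and 459 CPM per kb in mice 1, 2 and 3, and Ctsd 309, 388 and 436. Ctsb was next at 190 ± 1.66 CPM per kb, and Ctsl at 88.5 ± 15 and Ctsz at 80.3 ± 6.55 CPM per kb overlapped.

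The 10 genes together took 0.194, 0.193 and 0.183% of all counts in the WT mice and 0.255, 0.294 and 0.315% in the GFAP-IL6 mice. The 3 GFAP-IL6 mice were all above the 3 WT mice. The widest of the 95% Wilson intervals, which cover counting error only, was 0.252 to 0.258% in GFAP-IL6 mouse 1. Within the family the mix differed as well. Ctss made up 8.59, 8.74 and 7.75% of the cathepsin counts in WT and 19.0, 19.8 and 20.3% in GFAP-IL6 mice. Counts of Ctss per count of Ctsb went from between 0.191 and 0.205 to between 0.541 and 0.697. The share of Ctsb, whose own level was not called, was 42.5% on average in WT and 31.8% in GFAP-IL6 mice, while that of Ctsd was 27.7 and 28.1%.

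**Figure D2:**
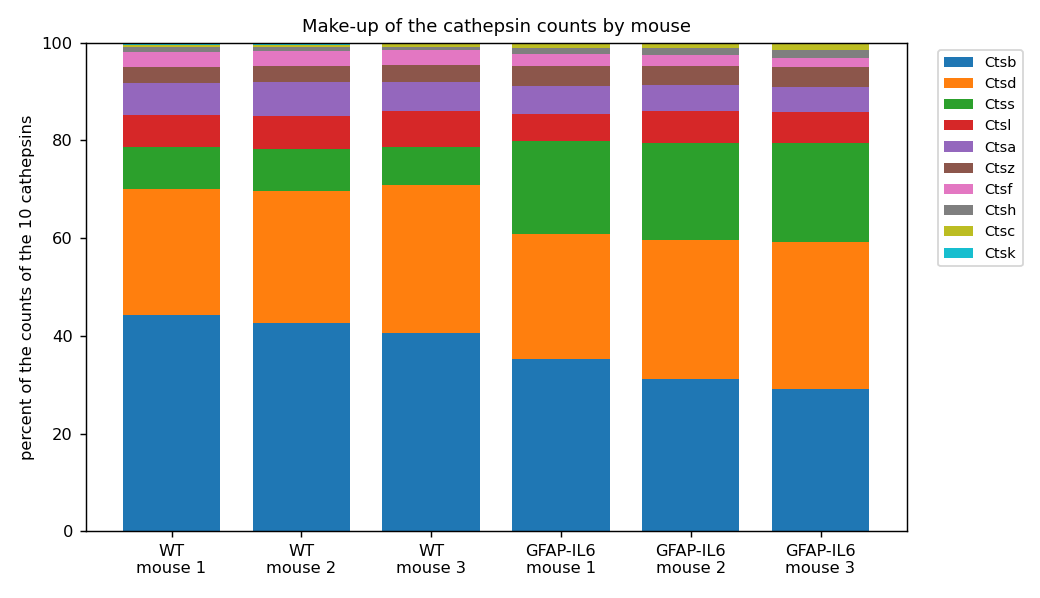
Percent of the counts of the 10 cathepsins (vertical axis) that each gene took in each of the 6 mice, as stacked bars. The Ctss segment is 7.75 to 8.74% in WT and 19.0 to 20.3% in GFAP-IL6 mice, and the Ctsb segment is smaller in every GFAP-IL6 mouse than in any WT mouse.

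Each set of 6 libraries, with 1 library per mouse, was also fitted alone. With 2 ng in set A 5 members were called higher against 1.01% of all genes, with 1 ng in set A 6 against 1.07%, with 2 ng in set B 5 against 1.05%, and with 1 ng in set B 5 against 1.06%. Ctss, Ctsc, Ctsz, Ctsh and Ctsd were called in all 4 sets, and Ctsl only with 1 ng in set A, where its log2 fold change was 0.49 (SE 0.12, edgeR adjusted p = 0.0337). The log2 fold change of Ctss stayed between 1.76 and 1.85, that of Ctsc between 1.65 and 1.73, that of Ctsz between 0.85 and 0.94, and that of Ctsd between 0.57 and 0.63. Because the sets came from the same RNA, their likeness speaks to the library preparation and not to further mice.

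Ctsh and Ctsk varied more between sets than the others. The log2 fold change of Ctsh was 1.23 and 1.02 with 2 ng and 1 ng in set A and 1.90 and 1.29 with 2 ng and 1 ng in set B. In the set with 2 ng in set B, the GFAP-IL6 mice had 40.4, 49.1 and 60.8 CPM of Ctsh against 15, 12.3 and 14.2 CPM in WT mice. With 1 ng in set A they had 37.1, 31.9 and 41.8 CPM against 20.8, 17.6 and 15.5 CPM. The genotypes were thus apart in both. The log2 fold change of Ctsk was -0.90 and -0.77 in set A and 0.08 and -0.05 in set B, and it was called in none of the 4.

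Whether the genotype difference depended on the amount of cDNA or on the set letter was tested by interaction terms over the 24 libraries with the mouse in the model. No gene of the 13249 tested was called by edgeR for either term (0.00% in both), with 383 and 920 genes at an unadjusted p under 0.05, and DESeq2 also called 0 with 265 and 714. Ctsh had a genotype difference that was larger by 0.41 with 2 ng (SE 0.15, edgeR adjusted p = 1.0) and by 0.47 in set B (SE 0.15, edgeR adjusted p = 0.424), both on the log2 scale. For Ctsk set B was above set A by 0.88 (SE 0.30, edgeR adjusted p = 0.472). For Ctss the 95% normal interval from the SE of the difference between the amounts ran from -0.09 to 0.09 and that between the sets from -0.04 to 0.15. The same intervals of Ctsh were 0.11 to 0.72 between the amounts and 0.17 to 0.77 between the sets. That of Ctsk between the sets was 0.29 to 1.47. Those of Ctsh and Ctsk leave out 0, but they are not adjusted for the number of genes tested.

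**Figure D3:**
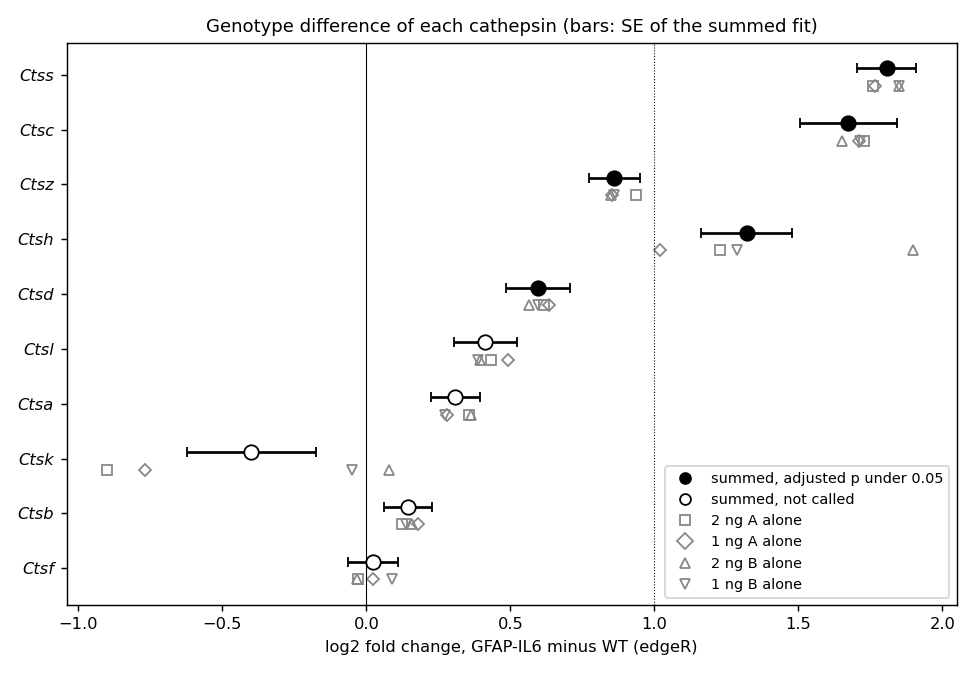
Log2 fold change of each cathepsin, GFAP-IL6 minus WT (horizontal axis), with circles for the summed libraries (filled where called, bars 1 SE) and grey open symbols for each set fitted alone; the dotted line is the DEG threshold of 1. The 4 sets of Ctss lie within 1.76 to 1.85, whereas those of Ctsk run from -0.90 to 0.08.

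Levels also differed between the pools of libraries within the same mouse, which are described without a test because each pool was made once. TMM scaling was done within each pool, so levels of different pools were scaled to each other by library totals only. On the log2(CPM + 1) scale Ctsd was higher with 2 ng than with 1 ng in all 6 mice, by 0.15 on average in set A and by 0.16 in set B. Ctsl was higher with 2 ng than with 1 ng in set A in all 6 mice (mean 0.26), but in set B in 2 of 6 (mean 0.02). For Ctsb the difference in set A was -0.15 on average and was below 0 in every mouse. With 2 ng, Ctsl was higher in set A than in set B in all 6 mice (mean 0.31). Ctsa, Ctsz and Ctsb were lower in set A in all 6 (means -0.19, -0.17 and -0.12). In single mice the difference of set A from set B with 2 ng reached 1.24 for Ctsk and 1.08 for Ctsc. That of 2 ng from 1 ng in set B reached 0.75 for Ctsh. Ctsk, Ctsc and Ctsh were the members with the lowest counts.

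Promoter sequence was examined for 3 short motifs in RefSeq promoters of build GRCm38.p6, from 250 bases before to 50 bases after the RefSeq gene start. That start is the same as the GENCODE gene start given above for Ctss and Ctsc and differs from it for Ctsa, Ctsd, Ctsf and Ctsk, so windows of these 4 are placed by the RefSeq start. A promoter was at hand for 8 members, and not for Ctsb and Ctsh. CACGTG, the core letters of the E-box bound by the lysosomal regulators TFEB and TFE3, was found in those of Ctsa, Ctsd, Ctsf and Ctsl, 4 of 8, and in 7.15% of the 32851 promoters in the table. GAGGAA, which holds the core letters of ETS factors such as PU.1, was found on either strand in those of Ctsc, Ctsk and Ctss, 3 of 8, and in 28.3% of all. TTCNNNGAA, the spacing bound by STAT factors, was found in that of Ctsc, 1 of 8, and in 8.30% of all. The windows below are shown because they set called members (Ctss, Ctsc and Ctsd) beside members that were not called (Ctsk, Ctsa and Ctsf), with the motif or its reverse complement in capitals, 5′ to 3′ on the strand of the gene. They lie at chr3:95526610-95526639 and chr3:95526774-95526803 for Ctss, chr7:88277877-88277906 and chr7:88277839-88277868 for Ctsc, chr3:95498965-95498994 for Ctsk, chr7:142387908-142387937 on the minus strand for Ctsd, chr2:164833749-164833778 for Ctsa and chr19:4855074-4855103 for Ctsf.
Ctss, GAGGAA: gacacagggttgGAGGAAaactttgtcctg
Ctss, GAGGAA on the other strand: atgaaagttcacTTCCTCattgtggatgct
Ctsc, GAGGAA on the other strand: ccactttccttcTTCCTCctagtggtgcct
Ctsc, TTCNNNGAA: agctttggcgTTCCTTGAAaggcagaggtc
Ctsk, GAGGAA: gtcagacattttGAGGAAgaatggagacaa
Ctsd, CACGTG: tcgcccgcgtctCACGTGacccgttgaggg
Ctsa, CACGTG: tgagcaaactgtCACGTGatgcagatgctc
Ctsf, CACGTG: caccccgtggtcCACGTGcctcgcgtaaat

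Of the 4 members with CACGTG only Ctsd was called, and of the 3 with GAGGAA Ctss and Ctsc were called and Ctsk was not. A match of letters is a description and not a binding site, and factor binding was not measured.

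The levels of the 5 called members were set beside markers of the cells that could carry them. Of 12 microglia markers 8 were called higher, against 1.74% of all genes, and none lower. Their median log2 fold change was 0.68. Without GFAP-IL6 mouse 3 the number called was 5. Among those with the smallest p were Aif1, a calcium-binding protein of microglia (log2 fold change 1.22), Trem2, a lipid receptor (1.18), and Itgam, the integrin chain CD11b (1.60). Fcrls (0.82), Cx3cr1 (0.72), Csf1r (0.64) and Tmem119 (0.59) were called as well. The receptor P2ry12 was not called and had 55.8 CPM in WT and 55.1 CPM in GFAP-IL6 mice. Siglech (log2 fold change 0.42), Sall1 (0.20) and Gpr34 (0.04) were not called either. The summed level of the 12 was 478 to 535 CPM in WT and 748 to 965 CPM in GFAP-IL6 mice, and none of them was at 0 in any mouse. It was lowest in GFAP-IL6 mouse 1 and highest in mouse 3 of that genotype, like the 5 cathepsins.

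Ctss differed by more than the marker sum. Ctss CPM per summed marker CPM was 0.347, 0.318 and 0.300 in WT and 0.654, 0.689 and 0.645 in GFAP-IL6 mice, with no overlap. The ratio of Ctsc went from between 0.0180 and 0.0227 to between 0.0324 and 0.0405, also with no overlap, and that of Ctsh from between 0.0286 and 0.0394 to between 0.0413 and 0.0519. For Ctsz the ranges overlapped, 0.117 to 0.137 in WT and 0.130 to 0.142 in GFAP-IL6 mice. They overlapped for Ctsd as well, 0.982 to 1.18 and 0.880 to 0.989. The log2 fold changes of the 12 markers ran from -0.02 for P2ry12 to 1.60 for Itgam, and abundant markers weigh most in the sum. Which members overlap, Ctsz and Ctsd among them, therefore depends on the markers chosen. These ratios were chosen after the levels were known and carry no test.

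**Figure D4:**
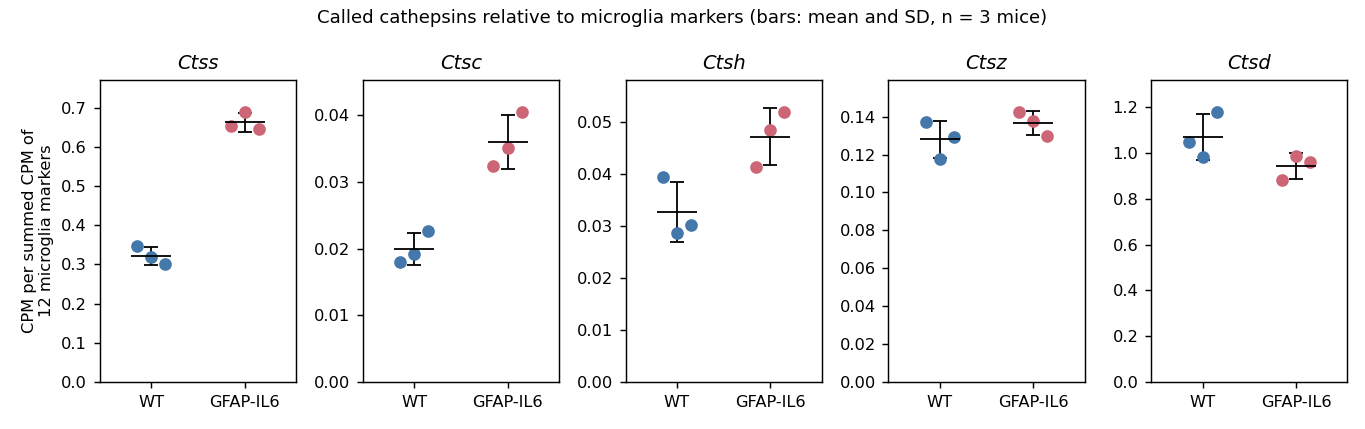
CPM of each called cathepsin divided by the summed CPM of 12 microglia markers (vertical axes, linear from 0) in the 3 WT and 3 GFAP-IL6 mice, with bars for the mean and SD. With this sum as divisor Ctss, Ctsc and Ctsh are apart between genotypes, and Ctsz and Ctsd overlap. Ctss is near 0.300 to 0.347 in WT and 0.645 to 0.689 in GFAP-IL6 mice. The split depends on the markers chosen.

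None of 8 border macrophage markers was called, against 1.74% of all genes called higher. Their median log2 fold change was 0.31, and their sum was 14.7 to 17.8 CPM in WT and 13.9 to 18.2 CPM in GFAP-IL6 mice. Pf4 was the largest part of that sum, at 7.56 CPM in WT and 6.03 CPM in GFAP-IL6 mice on average. Lyve1 was also lower on average, and the other markers were higher. Their highest mean was 2.33 CPM, that of Stab1 in GFAP-IL6 mice. Of 8 blood monocyte and neutrophil markers 3 could be tested and none was called. The median log2 fold change of these 3 was 0.60. The sum of the 8 was 0.787 to 4.38 CPM in WT and 2.85 to 7.83 CPM in GFAP-IL6 mice, with Ltf at 0 in 3 of the 6 mice. None of 8 neuron and 7 oligodendrocyte markers was called.

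The summed markers of endothelial cells and of astrocytes were also higher in every GFAP-IL6 mouse. Of 6 endothelial markers Flt1, a receptor for VEGF, was called higher (log2 fold change 0.70, edgeR adjusted p = 0.00637), against 1.74% of all genes. This call was lost without WT mouse 2 and without GFAP-IL6 mouse 2. The median log2 fold change of the 6 was 0.62, the genotypes did not overlap in 4 of them, and their sum was 51.8 to 58.4 CPM in WT and 62.3 to 85.7 CPM in GFAP-IL6 mice. Of 8 astrocyte markers Gfap was called higher, against 1.74% of all genes, and their median log2 fold change was 0.14. Their sum was 3281 to 3363 CPM in WT and 3615 to 3797 CPM in GFAP-IL6 mice. Aldoc was the largest part of that sum, at 1674 CPM in WT and 1888 CPM in GFAP-IL6 mice on average. Aldh1l1 was lower in every GFAP-IL6 mouse than in any WT mouse (means 49.7 and 53.4 CPM), against 5.93% of all genes. S100b was lower on average (352 and 375 CPM), and the other markers of the 8 were higher on average. None of the genes of these 2 lists was without a count over the 24 libraries. The part of cell numbers in the cathepsin differences was not tested.

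Among the inhibitors of cathepsins 8 of 13 listed genes could be tested, with a median log2 fold change of 0.08. Of these 2 were called higher, against 1.74% of all genes, and none lower. Ctla2a, related to the propeptide of cathepsin L, had 6.87, 7.92 and 5.64 CPM in WT and 15.7, 21.0 and 24 CPM in GFAP-IL6 mice (log2 fold change 1.56, SE 0.17, edgeR adjusted p = 7.40e-05). Cst7, which encodes cystatin F, an inhibitor of cathepsin C in immune cells, had 0.260, 0.776 and 0.131 CPM in WT and 3.16, 7.34 and 6.90 CPM in GFAP-IL6 mice. The genotypes did not overlap in either gene, but the WT values of Cst7 rested on 5, 14 and 1 counts (log2 fold change 3.75, SE 0.44, edgeR adjusted p = 0.000151). Cst3, cystatin C, the abundant secreted inhibitor in brain, had 5727 CPM in WT and 5897 CPM in GFAP-IL6 mice on average and was not called (log2 fold change 0.04, adjusted p = 0.956).

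The lists of genes that deliver and mature cathepsins held 1 called gene, against the 1.74% of all genes called higher. None of 8 sorting genes, which include the mannose 6-phosphate receptors M6pr and Igf2r, was called, and their median log2 fold change was -0.01. Of 12 genes for processing and partner proteins Lgmn alone was called. Lgmn, the asparaginyl endopeptidase that cleaves several cathepsins to their mature chains, had 99.3, 97.4 and 103 CPM in WT and 140, 129 and 151 CPM in GFAP-IL6 mice (log2 fold change 0.49, SE 0.09, edgeR adjusted p = 0.00513). The call of Lgmn was lost without WT mouse 2 (edgeR adjusted p = 0.0534) and without GFAP-IL6 mouse 3 (edgeR adjusted p = 0.0582), which left 0 of the 12 called. Grn, the progranulin gene, was not called (log2 fold change 0.59, adjusted p = 0.0585), nor was Cd74, the invariant chain that Ctss trims, at 1.70 CPM in WT and 3.76 CPM in GFAP-IL6 mice on average (log2 fold change 1.04, adjusted p = 0.205). With Grn called as well the count was 2 by DESeq2, with no TMM scaling, with a replicate block and without GFAP-IL6 mouse 1, and with Cd74 added it was 3 with no filter and by limma voom. None of 12 genes of lysosome acidification and biogenesis was called, and their median log2 fold change was -0.03.

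**Figure D5:**
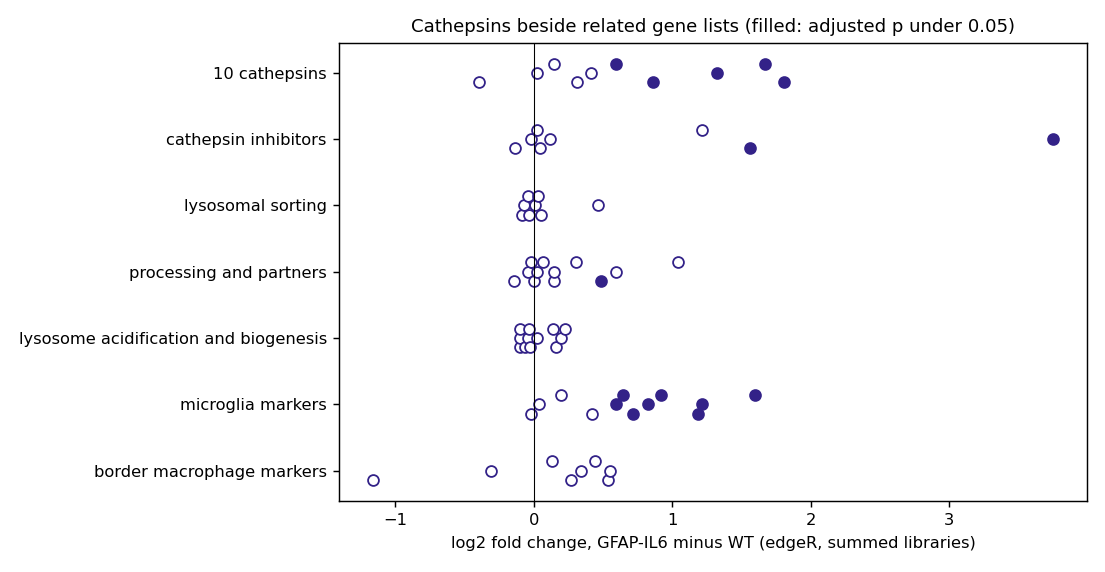
Log2 fold change, GFAP-IL6 minus WT (horizontal axis), of the tested genes of the cathepsin family and of 6 related lists, 1 circle per gene and filled where the adjusted p was under 0.05. Called genes are 5 of 10 cathepsins, 2 of 8 inhibitors, 1 of 12 processing and partner genes and 8 of 12 microglia markers. The other 3 lists hold none. All of these were called higher, against 1.74% of all genes.

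Among 13 other cathepsin genes of the mouse, 11 had no count in any library, which with 0 of 112945479 counts allows a level of up to 0.0266 CPM. Ctso had 41.8 to 47.4 CPM in WT and 43.7 to 48.6 CPM in GFAP-IL6 mice and was not called (log2 fold change 0.06). Ctsw, a cathepsin of cytotoxic lymphocytes, had 1, 0 and 0 counts in the WT mice and 8, 11 and 33 counts in the GFAP-IL6 mice. It fell below the filter on low counts, and with no filter it was called higher (edgeR adjusted p = 0.00134).

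The genes with the profile over the 6 mice nearest to that of each called member, by the root mean square difference of centred log2(CPM + 0.5) values among 8977 genes, are given as a description. For Ctss they were Ly86 (0.13), Lyz2 (0.17) and Ifitm3 (0.18), and for Ctsc Fyb (0.04), AF251705 (0.11) and Mpeg1 (0.12). For Ctsz they included Arhgdib (0.07) and Plek (0.09), and for Ctsh they were Tmem176a (0.09), Rac2 (0.10) and Itgam (0.12). For Ctsd they were Arpc1b (0.02), Tnfaip8 (0.05) and Ackr1 (0.07). Ly86 itself rose from 27.6 to 99.7 CPM on average.

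Some member counts could hold reads of an overlapping gene, since no strand setting of the counting is given in the sources used here. In GENCODE vM21, exons of Ctsb share 774 bases with Fdft1 on the other strand, those of Ctsa 495 bases with Pltp and 324 with Neurl2, and those of Ctsz 10 bases with Nelfcd. Ctsl shares 1742 bases with Gm47123 on the other strand and 395 with Gm49230 on the same strand, and Ctsd 808 bases with Gm49369 on the same strand. Ctss, Ctsc, Ctsh, Ctsf and Ctsk overlap no exon of another gene.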

How the data were processed

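Gene expression was measured by 3'Pool-seq in 24 libraries, 4 from each of 3 WT and 3 GFAP-IL6 mice. The deposited table holds raw counts per gene with no normalization, which the authors made by trimming poly(A), aligning 75 base single-end reads with STAR (version 2.4) and counting uniquely mapped reads with featureCounts of Subread. The study's methods name mm10 and GENCODE vM6 for mouse, while the submitters' processing notes name hg19 only; coordinates here are from GENCODE vM21 on GRCm38. The method has no molecular identifiers, so reads are not independent molecules.

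Counts of the 4 libraries of a mouse were summed, so that n is the number of mice, and were filtered with filterByExpr, scaled by TMM and tested with edgeR (4.0.16, R 4.3.3) over all genes. The SE is the log2 fold change divided by the root of F. Each set was fitted alone, and the interactions over all 24 libraries had terms for mouse and pool. Alternatives were DESeq2 (1.42.0), other scalings and filters, a replicate block, leaving out each mouse, limma (3.58.1) voom on single libraries, and thinning. The code was tested on simulated data. Named genes were all members, Il6 and Gfap, up to 4 called genes per list by smallest p, the 3 nearest profiles of each called member among genes with a mean CPM of at least 10, and genes of the lists singled out after their values were seen. The members and lists were chosen with earlier results of these data known. A gene that the rule for named genes picks is not reported here.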

Additional observations from a re-analysis of the deposited data

How the results depend on the processing

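Of the 14 alternatives to the summed fit, all kept the direction of each of the 10 members. Ctss, Ctsc, Ctsz and Ctsh were called higher in all 14, with log2 fold changes from 1.73 to 1.90, 1.45 to 1.80, 0.80 to 0.91 and 1.13 to 1.46. Ctsd was called in 12, Ctsl in 4, Ctsa in 2 and Ctsb in 1. The number of members called higher, 5 in the report, was 6 with DESeq2, 7 with no filter on low counts and 8 with limma voom on the single libraries with the mouse as a random block, and ran from 4 to 6 when a mouse was left out. With 2 ng in set A it ran from 3, without GFAP-IL6 mouse 3, to 6. The number of DEGs was 3 in every alternative of the summed fit. With the replicate block of same-numbered mice 5 members were called, and 210 genes in all were called higher. Deviations of same-numbered mice from their genotype means had r = -0.05, -0.03 and -0.03 over 14621 genes. For the other pairs of WT and GFAP-IL6 mice r ran from -0.08 to 0.13. A shared origin or handling of same-numbered mice was not tested. Over all genes 255 of 14621 were called higher in the summed fit and 291 of 14621 with DESeq2. The count was 409 of 20629 with no filter, 418 of 13249 with limma voom and 144 of 14854 without GFAP-IL6 mouse 3. Limma voom also called 220 genes lower, against 8 in the summed fit, so its count of members comes with more calls in both directions. With GFAP-IL6 mouse 3 left out, the genes called higher fell from 123 to 56, from 133 to 62, from 128 to 59 and from 138 to 54 in the 4 sets (2 ng A, 1 ng A, 2 ng B and 1 ng B).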
